A study of Mus musculus with 12 samples.

Results

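The comparison set CD8 T cells taken from mice given donor antigen, costimulation blockade and lipopolysaccharide (LPS) against the same kind of cells from mice given donor antigen alone. The 3 inflamed and the 3 activated libraries made up 6 of the 12 libraries of the series, and were chosen by their treatment labels. The cells were KB5 CD8 T cells, which carry a transgenic T cell receptor specific for an antigen of C57BL/6 mice, on the CBA/J background. Activated cells came from mice injected intravenously with 10000000 C57BL/6 splenocytes. Inflamed cells came from mice that received the same 10000000 splenocytes together with 0.5 mg of anti-CD154, an antibody to CD40 ligand, and 100 µg of LPS, both given intraperitoneally. The series also holds 3 tolerized libraries, from mice given splenocytes and 0.5 mg of anti-CD154 without LPS, and 3 naive libraries from untreated mice. Both groups are used here for levels and differences given as description. They also enter the main fit, where they help set the spread behind each adjusted p. Spleens were taken at 12 h, and the cells were sorted with antibodies to the KB5 receptor and CD8 to 95% purity per the labels. Anti-CD154 and LPS were both absent from the activated group, so their separate parts in a difference cannot be told apart by this comparison. The 3 libraries of a condition are called independent in the labels, but separate mice are not named, and a p-value here speaks only for the spread among the libraries at hand.

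LPS is a component of the outer membrane of bacteria that is sensed mainly by macrophages and dendritic cells through TLR4. These cells answer with type I interferon, interleukin-12, interleukin-6 and other mediators, which act on T cells through cytokine receptors and STAT factors. Type I interferon drives a large set of antiviral genes through the factor ISGF3, which contains STAT2 and IRF9. CD40 ligand on T cells licenses dendritic cells through CD40, and an antibody to it withholds this help during exposure to alloantigen, which is a standard way to induce transplantation tolerance in mice. Inflammatory signals given together with blockade are known to interfere with that tolerance.

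The inflamed libraries held 35822132, 53432765 and 43638241 assigned reads and the activated libraries 30273092, 38099037 and 53123648. Log values correlated at 0.978 to 0.987 within the inflamed group, at 0.961 to 0.991 within the activated group and at 0.956 to 0.986 between them. The T cell label was borne by the markers in all 6 libraries. Cd8a stood at 1415, 1468 and 1556 CPM, read counts scaled to a common library size, in the inflamed and at 858, 1129.8 and 1199 CPM in the activated libraries, against 3.15 to 6.66 CPM for Cd4. Of the 10 CD8 T cell markers on the list, Cd8a among them, 0 were called higher in the test described below. The 2 called lower were Cd5 and Cd6, and the median log2 difference of the list was 0.01. Over all genes tested, 1.54% were called higher and 0.384% lower. Markers of red pulp macrophages and monocytes summed over the 22 listed genes to 708, 256 and 22.1 CPM in inflamed libraries 1, 2 and 3 and to 976, 239 and 83.7 CPM in the activated ones. Neutrophil markers, 17 genes in the table, summed to 354, 149 and 17.4 CPM in the inflamed and 20.5, 3.09 and 4.86 CPM in the activated libraries. B and plasma cell markers ranged from 216 to 476 CPM and erythroid markers from 23.4 to 311 CPM over the 6 libraries, with overlapping groups. The neutrophil sum was above the activated level of the same number in all 3 inflamed libraries but overlapped between the groups (17.4 against 20.5 CPM), as the plot of marker sums shows. In bulk libraries fewer cells of a type and less RNA per cell cannot be told apart.

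**Figure D1:**
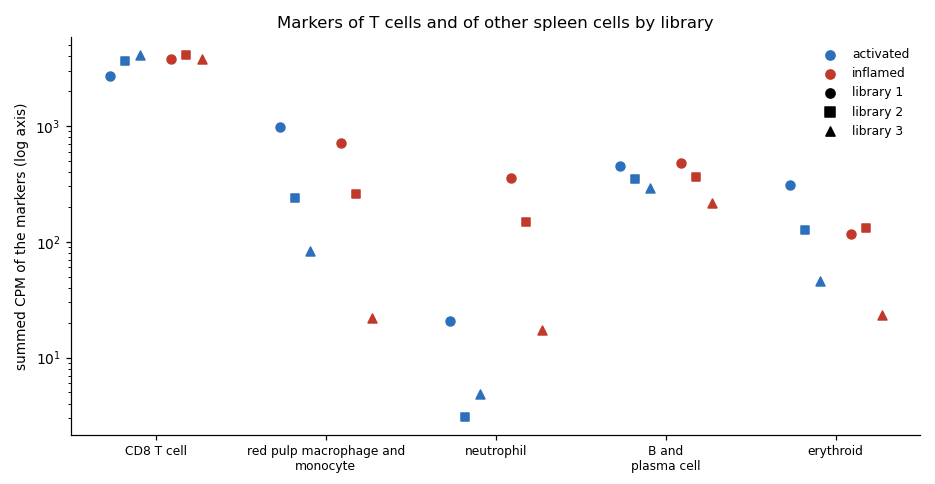
Summed CPM (log axis) of markers of CD8 T cells and of 4 other spleen cell types, with 1 symbol per library, activated in blue and inflamed in red. Library 1 of both groups is the richest in macrophage markers, and the neutrophil sum spans 17.4 to 354 CPM among the inflamed libraries.

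Of 12499 genes tested, 192 were higher in inflamed cells (1.54%) and 48 were lower (0.384%) at a Benjamini-Hochberg adjusted p under 0.05 by limma on log2(CPM + 1). The median difference of all genes was -0.01 on that log2 scale, and 104 of the higher and 19 of the lower genes differed by at least 2-fold. For 10518 genes, 84.2% of those tested, the whole 95% interval of the difference lay within 2-fold in either direction. The 3 inflamed libraries lay outside the range of the 3 activated libraries for all 240 called genes. Since these were chosen by a test on the same libraries, this is no separate support. Over all genes tested, the inflamed libraries lay above the activated ones for 7.72% and below for 5.46%. The higher genes had a median log2 difference of 1.11 and the lower ones of -0.93. A fit of the 6 libraries of the 2 groups alone, with the library number as a block, left 60 higher and 7 lower genes. Of the called genes, 43 higher and 5 lower genes passed both in it and in each of the 6 fits without 1 library. Leaving out inflamed library 1 or 2 or activated library 2 lowered the counts to 106 and 26, 96 and 28, and 87 and 20, and leaving out inflamed library 3 raised them to 249 and 89. Without library 1 of both groups, 86 genes were higher and 24 lower. Counts of called list members below are to be read beside the shares of all genes, 1.54% higher and 0.384% lower. In the paragraphs below an adjusted p is from the limma fit of all 12 libraries. A paired adjusted p is from the limma fit with the block, which uses the 2 groups alone. The 2 groups alone without a block gave 85 higher and 14 lower genes. A call lost with the block can thus reflect the fewer libraries as well as the pairing, and their parts were not tested.

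**Figure D2:**
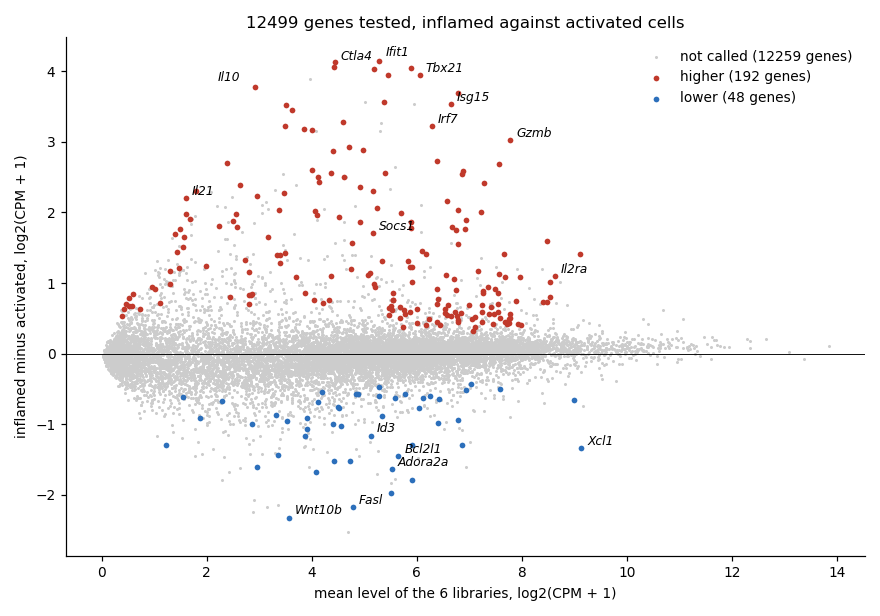
Difference between inflamed and activated cells on the log2(CPM + 1) scale (vertical) against the mean level of the 6 libraries (horizontal) for the 12499 genes tested, with the 192 called higher in red and the 48 called lower in blue. The called rises reach 4.15, and the called falls reach -2.32.

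Type I interferon-stimulated genes had the highest median difference of the 41 gene lists. Of 41 tested, 24 were called higher, against 1.54% of all genes tested, and 0 lower, all 41 differences were positive, and their median log2 difference was 2.34 against -0.01 over all genes. In 36 of the 41 the 3 inflamed libraries lay above all 3 activated ones, as they did for 7.72% of all genes tested, while for 5.46% they lay below. Summed over the list, the level was 3998, 3178 and 2386 CPM in the inflamed libraries and 634, 878 and 1307 CPM in the activated libraries, without overlap. The count of called members was 11 with the block and ranged from 13 (without activated library 2) to 25 (without activated library 3) when 1 library was left out. Without library 1 of both groups, the libraries richest in macrophage transcripts, 10 were called higher, and with the macrophage marker level as a covariate 27 were.

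Ifit1, whose protein binds viral RNA that lacks host cap methylation, reached 83.9, 66 and 68.2 CPM in inflamed libraries against 1.55, 3.04 and 5.87 CPM in activated libraries. The groups were far apart, although activated library 3 stood above the other two activated libraries, and the difference was 4.15 ± 0.52 on the log2 scale (adjusted p = 0.00227). Its neighbour Ifit3, which encodes a partner of Ifit1 in the same complex, stood at 97.1, 60.4 and 46.7 against 2.59, 2.53 and 4.2 CPM (4.03 ± 0.55, adjusted p = 0.00389). Isg15, a ubiquitin-like protein that is joined to target proteins during the interferon response, was at 248, 161 and 145 CPM in inflamed cells and within a narrow range, 15.5, 15 and 13.3 CPM, in activated cells. Its difference of 3.53 ± 0.21 had an adjusted p of 2.01e-05. Usp18, the protease that removes Isg15 and restrains interferon receptor signalling, rose by 3.95 ± 0.58 (adjusted p = 0.00553) from 2.3, 4.18 and 6.92 to 107, 82.6 and 54.8 CPM. Oasl1, a 2'-5'-oligoadenylate synthetase-like protein, was at 33.7, 17.6 and 13.8 CPM against 0.612, 1.2 and 1.09 CPM, a difference of 3.45 ± 0.29 (adjusted p = 0.000178).

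Sensors and regulators of the pathway gave different values. Irf7, the factor that amplifies type I interferon production, stood at 199, 132 and 89.2 CPM in the inflamed and 9.72, 10.9 and 21.7 CPM in the activated libraries, a log2 difference of 3.23 ± 0.60 (adjusted p = 0.0203). Ifih1, the cytoplasmic sensor MDA5 of long double-stranded RNA, rose by 2.51 (adjusted p = 0.00231), and Dhx58, the related sensor LGP2, by 2.56 (adjusted p = 0.0141). The third receptor of that family, Ddx58 (RIG-I), had overlapping groups and a difference of 1.02 (adjusted p = 0.738). Irf9, the DNA-binding part of ISGF3, stood at 119.6, 105 and 84.6 against 25.7, 39.4 and 53.2 CPM and rose by 1.41 ± 0.29 (adjusted p = 0.0347). Its partner Stat2 stood at 90.9, 62.8 and 43.8 against 27.3, 32 and 41.4 CPM without overlap and did not pass (adjusted p = 0.229). Activated library 3 was the highest of its group for Irf7, Irf9 and Stat2. Irf7 and Irf9 lost their call with the block (paired adjusted p = 0.0771 and 0.186) and without inflamed library 1 or 2 or activated library 1 or 2 (adjusted p up to 0.107 and 0.179).

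Antiviral effectors filled much of the list. Mx1, a dynamin-like GTPase that blocks viral replication, stood at 28.8, 18.3 and 12.8 against 0.72, 0.586 and 0.937 CPM and rose by 3.52 ± 0.64 (adjusted p = 0.0175). Rsad2, or viperin, which makes a chain-terminating nucleotide, stood at 47.6, 17.4 and 10.6 against 3.13, 0.506 and 1.24 CPM, a difference of 3.18 (adjusted p = 0.00747). Bst2, or tetherin, which holds budding virus at the cell surface, stood at 254, 177 and 147 against 58.4, 53.1 and 40.3 CPM and rose by 1.89 ± 0.20 (adjusted p = 0.000762). Eif2ak2, the kinase PKR that stops translation on double-stranded RNA, rose by 2.56 (adjusted p = 0.00389), and the oligoadenylate synthetase genes Oas2 and Oas1a by 3.22 and 2.39 (adjusted p = 0.00957 and 0.0282). Oas3 was at 159, 108 and 65.4 CPM in inflamed and 3.1, 8.9 and 17.5 CPM in activated libraries, and its difference of 3.53 did not pass (adjusted p = 0.0519). Mx1 and Dhx58 lost their call without inflamed library 1 or 2 or activated library 1 or 2 (adjusted p up to 0.0925 and 0.0737), Oas1a in each fit without 1 library except that without inflamed library 3 (up to 0.142), and Oas2 without activated library 2 (adjusted p = 0.0543). With the block Dhx58, Eif2ak2 and Oas2 did not pass (paired adjusted p = 0.0771, 0.062 and 0.0771). Of the genes described so far, Ifih1, Dhx58, Irf9, Stat2, Rsad2, Eif2ak2, Oas2 and Oas1a were picked for description once their values were known.

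Naive cells carried these transcripts too. The list summed to 2815, 2853 and 2315 CPM in the naive and 516, 679 and 1503 CPM in the tolerized libraries. The naive mean was above the activated mean for 38 of the 41 genes, and the inflamed mean was above the naive mean for 29. Isg15 was an exception to the first count, with 9.83, 11.5 and 9.76 CPM in the naive libraries, below the activated level. The tolerized mean was above the activated mean for 18 of 41, and tolerized library 3 was the highest of its group in the sum. The levels in these 2 groups are given as a description with no test.

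**Figure D3:**
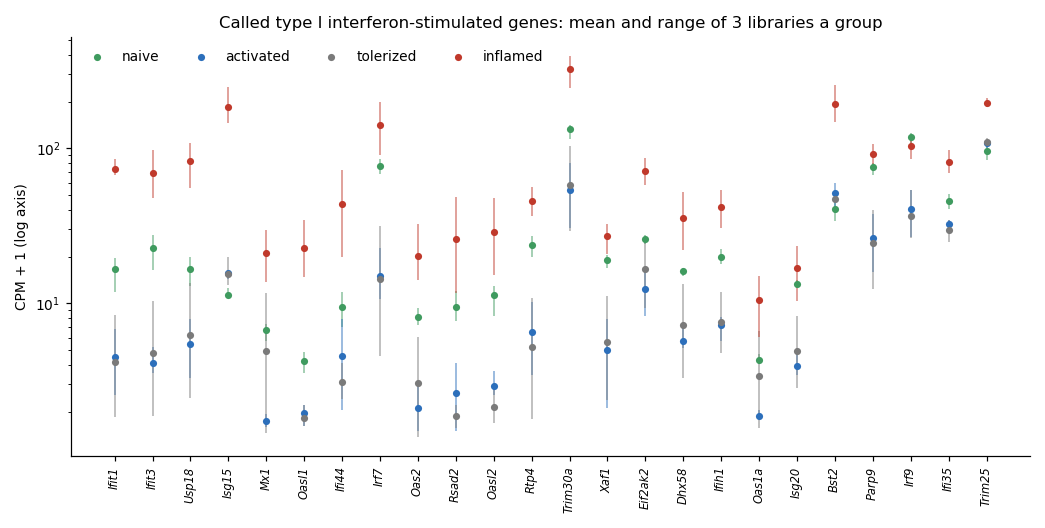
Level in CPM + 1 (log axis) of the 24 type I interferon-stimulated genes called higher, ordered by their difference, with a point for the mean and a line for the range of the 3 libraries of each group. Inflamed means lie above activated means for every gene shown, as only genes called higher are shown. Naive means lie between them or above both for most.

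The response element that ISGF3 binds was looked for in the promoters. RefSeq promoter windows of 300 bases (250 before to 50 after the start, GRCm38.p6) were at hand for 10049 of the genes tested. They were searched on both strands for the core of the interferon-stimulated response element, spelled GAAANNGAAA, where overlapping matches were counted separately. The core was in 320 windows, or 3.18%, of all genes tested. It was in 23 of 156 windows of called higher genes (14.7%) and in 0 of 35 windows of called lower genes. Among called members of the interferon list 9 of 18 windows (50%) held it, as did 7 of 13 (53.8%) of the members not called, and 14 of 138 (10.1%) of the other called higher genes. The gamma-activated sequence TTCNNNGAA, bound by STAT dimers, was in 18 of 156 (11.5%), 3 of 35 (8.57%) and 717 of 10049 (7.14%) windows of higher, lower and all genes. The NF-kB site GGGNNTTNCC was in 11 of 156 (7.05%), 3 of 35 (8.57%) and 534 of 10049 (5.31%), and the glucocorticoid half-site pair ACANNNTGT in 11 of 156 (7.05%), 1 of 35 (2.86%) and 424 of 10049 (4.22%). A match is a run of letters and not a measured binding site.

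The stretches below are shown because they place the core in promoters of called interferon-stimulated, feedback and GTPase genes. Of the 15 named genes with the largest rises, 10 had a window, and 3 of these windows, those of Ifit1, Ifit3 and Isg15, held the core. They run 5' to 3' on the strand of the gene, with each core in capitals (a core that begins with TTTC is read on the other strand) and a short flank on either side. Ifit1 (chr19:34640770-34640828, plus strand) and Ifit3 (chr19:34583358-34583431, plus strand) hold 2 cores each, and Isg15 (chr4:156200860-156200911, minus strand) holds 3 that overlap. Rsad2 (chr12:26456548-26456587, minus strand) holds 1, and Oas1a (chr5:120907515-120907560, minus strand) and Bst2 (chr8:71537572-71537617, minus strand) hold 2 that overlap. Of the genes outside the list, Irgm1 (chr11:48871420-48871465, minus strand) and Socs1 (chr16:10785589-10785634, minus strand) hold 2, and Igtp (chr11:58199507-58199546, plus strand), Slfn8 (chr11:83020834-83020873, minus strand) and Slfn9 (chr11:82991851-82991890, minus strand) hold 1.
Ifit1: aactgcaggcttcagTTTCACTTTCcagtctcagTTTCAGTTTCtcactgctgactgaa
Ifit3: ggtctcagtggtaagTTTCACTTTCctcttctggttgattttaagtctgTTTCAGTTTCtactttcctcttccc
Isg15: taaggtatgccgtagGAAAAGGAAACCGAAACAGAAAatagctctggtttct
Rsad2: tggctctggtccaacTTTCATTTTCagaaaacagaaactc
Oas1a: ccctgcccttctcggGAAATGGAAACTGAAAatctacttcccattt
Bst2: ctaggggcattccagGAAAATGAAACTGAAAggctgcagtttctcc
Irgm1: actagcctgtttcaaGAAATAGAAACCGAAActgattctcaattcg
Igtp: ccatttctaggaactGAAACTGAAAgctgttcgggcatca
Socs1: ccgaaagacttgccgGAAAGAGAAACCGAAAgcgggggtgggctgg
Slfn8: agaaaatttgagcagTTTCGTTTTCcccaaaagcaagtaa
Slfn9: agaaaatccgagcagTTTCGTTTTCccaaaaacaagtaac

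In these 23 called genes the 34 cores lay upstream of the start in 30 cases, with a median position 53.5 bases before it. The Slfn8 and Slfn9 stretches differ at few letters, and the Ifit3 stretch is the same, base for base, as that of its near-identical copy I830012O16Rik, whose window shares an unbroken run of 169 bases with it. Reads of such copies can be split between them by counting, so their separate levels are uncertain.

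Interferon-inducible GTPases and Schlafen genes, which overlap in control with the list above, moved less uniformly. Of 17 immunity-related and guanylate-binding GTPases tested, 3 were higher and 0 lower, 15 differences were positive and the median was 1.20. The 3 were GTPases of the IRG family that act at the vacuoles of intracellular pathogens. Irgm1 stood at 226, 178 and 129 CPM in inflamed and 37.1, 37.1 and 52.5 CPM in activated cells and rose by 2.03 ± 0.22 (adjusted p = 0.00101). Igtp rose by 1.76 ± 0.31 (adjusted p = 0.0154) and Ifi47 by 1.41 ± 0.22 (adjusted p = 0.00882). The guanylate-binding proteins, mostly strong targets of interferon gamma, had 0 of 9 members called, with differences from -0.53 for Gbp8 to 2.10 for Gbp10 (adjusted p = 0.0702). None of the 3 IRG genes passed with the block (paired adjusted p = 0.07, 0.15 and 0.0782), and Igtp was lost without inflamed library 1 or 2 or activated library 1 or 2 and Ifi47 without inflamed library 2 (adjusted p up to 0.0874 and 0.0522).

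Ly6a, the surface protein Sca-1, stood at 116, 172 and 46.4 CPM in the inflamed and 2.56, 4.82 and 9.3 CPM in the activated libraries, a log2 difference of 4.05 ± 0.64 (adjusted p = 0.00841). Slfn8 stood at 45.5, 46.6 and 45.4 against 8.39, 11.1 and 17.5 CPM and rose by 1.87 ± 0.26 (adjusted p = 0.00408), and Slfn9 rose by 1.78 ± 0.33 (adjusted p = 0.0186). These were the 3 of 11 tested Schlafen and Ly6 genes that passed, the median being 1.35. Slfn2, which keeps T cells quiescent, had overlapping groups and a difference of 0.41 (adjusted p = 0.465). With the block the 3 did not pass (paired adjusted p = 0.0967, 0.0549 and 0.143), and Slfn9 was lost without inflamed library 1 or 2 or activated library 1 or 2 (adjusted p up to 0.0944).

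Genes of antigen presentation and of the interferon gamma response gave 1 call. Of 24 tested, 1 was called, 20 differences were positive, the median was 0.33, and 17 had their whole interval within 2-fold, against 84.2% of all genes tested. H2-K1 and H2-D1, the classical class I heavy chains, differed by 0.06 and -0.05, and B2m, their light chain, by 0.43 (adjusted p = 0.92, 0.963 and 0.334). Irf1, a factor induced by interferon gamma, had overlapping groups at 149, 144 and 84 against 67.2, 94.9 and 127 CPM (adjusted p = 0.754). The called member was Socs1, the inhibitor of Janus kinases that is induced by several cytokines. It stood at 52.9, 56.7 and 51.9 CPM in inflamed and 16.8, 16.3 and 14.3 CPM in activated cells, a narrow spread in both groups, and rose by 1.71 ± 0.15 (adjusted p = 0.000225).

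Of the genes classed as cytokines in the deposited table, 5 were higher in inflamed cells and 2 lower. That table gives no class for 2310 of the genes tested. Among these are Ifng and Fasl, of which Fasl was called lower, so the counts leave them out. Il10, the anti-inflammatory cytokine interleukin-10, reached 11.4, 13.4 and 14.4 CPM in inflamed cells against 0, 0 and 0.075 CPM in activated cells. The groups did not come near each other, and the difference was 3.77 ± 0.17 (adjusted p = 3e-06). Since activated cells had almost no reads, its size depends on the number added before taking the logarithm and was 6.76 with 0.1 and 1.84 with 5 in place of 1. Lif, a cytokine of the interleukin-6 family, stood at 265, 168 and 177 against 24.3, 11.4 and 10.8 CPM and rose by 3.69 ± 0.32 (adjusted p = 0.000203). Il21, a cytokine of helper T cells that signals through STAT3, stood at 2.51, 5.06 and 4.44 CPM in inflamed and 0, 0.0533 and 0.112 CPM in activated cells. Its difference of 2.21 ± 0.17 had an adjusted p of 0.000123, and was 4.73 with 0.1 added and 0.82 with 5. Tnfsf8, the ligand of CD30, stood at 78.9, 80.1 and 90.7 against 31.2, 35.4 and 39.1 CPM and rose by 1.22 ± 0.19 (adjusted p = 0.00794). Il17f, picked once its values were known, reached only 0.703, 1.13 and 0.646 CPM in inflamed cells against 0.072, 0.0266 and 0.0375 CPM (adjusted p = 0.00408, paired adjusted p = 0.145). By the gene classes in the deposited table, 5 of 60 cytokine genes were higher (8.33%, against 1.54% of all genes tested), namely these 5. Another 2 were lower (3.33%, against 0.384%), Xcl1 and Tnfsf11. The filter asks for 10 reads at the median library size in at least 3 libraries. Il10, Il21 and Il17f passed it only through the inflamed libraries. They were thus tested because they were high there, and the count of 5 gives no support of its own.

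The cytokine genes Ifng, Tnf and Il2 were not called. Ifng, which encodes interferon gamma, stood at 84.2, 66.5 and 65.3 CPM in inflamed and 128, 64.8 and 71 CPM in activated cells, with overlapping groups (adjusted p = 0.869). Tnf stood at 149.6, 76.8 and 128 against 264, 160.0 and 111 CPM (adjusted p = 0.811), and Il2 at 2.6, 2.01 and 2.33 against 9.36, 2.74 and 2.23 CPM (adjusted p = 0.681). Activated library 1 was the highest of all 6 for these 3 genes. Tnfsf11, the ligand RANKL, was picked once its values were known and stood at 0.306, 0.37 and 0.348 against 2.84, 2.05 and 2.04 CPM, a difference of -1.30 ± 0.12 (adjusted p = 0.000338, paired adjusted p = 0.0613).

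Receptors for interleukin-12 rose on the transcript level. Il12rb1, the subunit shared by the interleukin-12 and interleukin-23 receptors, stood at 88.5, 85.8 and 72.6 CPM in inflamed and 18.5, 22 and 19 CPM in activated cells. It rose by 2.0 ± 0.11 (adjusted p = 1.55e-05). Il12rb2, the signalling subunit specific to interleukin-12, stood at 6.97, 8.26 and 8.54 against 1.69, 1.31 and 1.27 CPM and rose by 1.88 ± 0.15 (adjusted p = 0.000125). Both groups were tight for both subunits, and both passed with the block (paired adjusted p = 0.0118 and 0.0388). They were 2 of the 3 called among 15 tested genes for interferon, interleukin-12 and interleukin-18 receptors and Janus kinases, whose median was -0.03. The third, Il1rl1, the interleukin-33 receptor, stood at 1.71, 1.95 and 1.44 against 0.648, 0.426 and 0.844 CPM (adjusted p = 0.0214) and was lost with the block (paired adjusted p = 0.244) and without inflamed library 1 or 2 or activated library 1 or 2 (adjusted p up to 0.116). The interferon receptor genes Ifnar1, Ifnar2, Ifngr1 and Ifngr2 had overlapping groups and differences from -0.36 to 0.06 (adjusted p from 0.824 to 0.984). Stat4, which relays interleukin-12 signals, stood at 80.5, 88.2 and 76.3 against 165, 127 and 109 CPM and did not pass (adjusted p = 0.0603).

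Il2ra, the high-affinity subunit of the interleukin-2 receptor, stood at 539, 411 and 659.6 CPM in inflamed and 343, 215 and 197 CPM in activated cells and rose by 1.11 ± 0.23 (adjusted p = 0.038). Cish, a feedback inhibitor induced by STAT5 downstream of that receptor, stood at 174, 118 and 175 against 62.4, 37.3 and 35 CPM and rose by 1.8 ± 0.27 (adjusted p = 0.0065). The Cish promoter window holds 2 gamma-activated sequences at and just after the start (chr9:107296644-107296693, plus strand), printed with the matches in capitals.
Cish: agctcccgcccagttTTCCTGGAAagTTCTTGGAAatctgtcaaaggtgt

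Il2ra did not pass with the block (paired adjusted p = 0.179) or without inflamed library 1 or 3 or activated library 2 or 3 (adjusted p up to 0.18), while Cish passed with it (paired adjusted p = 0.0419). Stat3, which relays interleukins 6, 10 and 21, stood at 491, 425 and 495 against 281, 253 and 274 CPM and rose by 0.80 ± 0.10 (adjusted p = 0.00194). In the list of interleukin-6 and STAT3 response genes 3 of 16 tested were higher, 0 lower, and the median was 0.48. These were Stat3, Il10 and Maf. Il10 passed the filter on reads only through the inflamed libraries, so the count of 3 gives no support of its own. Socs3, the usual feedback inhibitor of STAT3, had overlapping groups at 44.7, 51.4 and 26.2 against 7.92, 24.5 and 56.5 CPM (adjusted p = 0.777).

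The T-box factor Tbx21, or T-bet, which directs cytotoxic and T helper 1 programmes, showed the largest rise of the genes classed as transcription regulators in the deposited table. It stood at 163, 117 and 92.6 CPM in inflamed cells and within a narrow range, 7.38, 6.58 and 6.82 CPM, in activated cells, a difference of 3.94 ± 0.45 (adjusted p = 0.00139, paired adjusted p = 0.00462). Its relative Eomes went the other way in value, at 176, 132 and 149 against 328, 269.8 and 253 CPM, without overlap and without passing (adjusted p = 0.0886), though it passed with the block (paired adjusted p = 0.0464). Gzmb, the cytotoxic protease granzyme B, stood at 434, 324 and 408 CPM in inflamed and 54.7, 33.5 and 54.1 CPM in activated cells and rose by 3.03 ± 0.61 (adjusted p = 0.0278). Prf1, the pore-forming perforin, stood at 311, 239.6 and 231 against 136, 118 and 103 CPM and rose by 1.13 ± 0.19 (adjusted p = 0.0106). Srgn, the proteoglycan that packs granules, stood at 479.8, 495 and 502 against 277, 224 and 234 CPM and rose by 1.01 ± 0.09 (adjusted p = 0.000203). Over the effector list 5 of 24 were higher and 1 lower, with a median of 0.47. Il21, among those higher, passed the filter on reads only through the inflamed libraries, so the count of 5 gives no support of its own. Gzmb lost its call in each of the 6 fits without 1 library (adjusted p up to 0.136) and kept it with the block (paired adjusted p = 0.00462). Tolerized libraries had 35.4, 37.9 and 261 CPM of Gzmb, a wide spread that enters the fit of all 12 libraries and not the paired one. Prf1 was lost without activated library 2 (adjusted p = 0.0547).

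Fasl and Xcl1 were the effector transcripts that fell. Fasl, the death ligand of the TNF family, stood at 6.64, 6.97 and 13.5 CPM in inflamed cells and at 60.4, 40.1 and 31.2 CPM in activated cells, and the difference was -2.18 ± 0.30 (adjusted p = 0.00387). Xcl1, the chemokine that draws cross-presenting dendritic cells, stood at 333, 287 and 303 against 1180.3, 708 and 556 CPM, a difference of -1.33 ± 0.24 (adjusted p = 0.0181). It was the 1 chemokine called of 9 tested. Ccl3, Ccl4 and Ccl5, other chemokines of CD8 T cells, had overlapping groups with differences of 0.78, 1.01 and 2.05 (adjusted p = 0.68, 0.478 and 0.51). Neither Fasl nor Xcl1 passed with the block (paired adjusted p = 0.128 and 0.0951), and Xcl1 was lost without inflamed library 1 or 2 or activated library 2 (adjusted p up to 0.071).

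**Figure D4:**
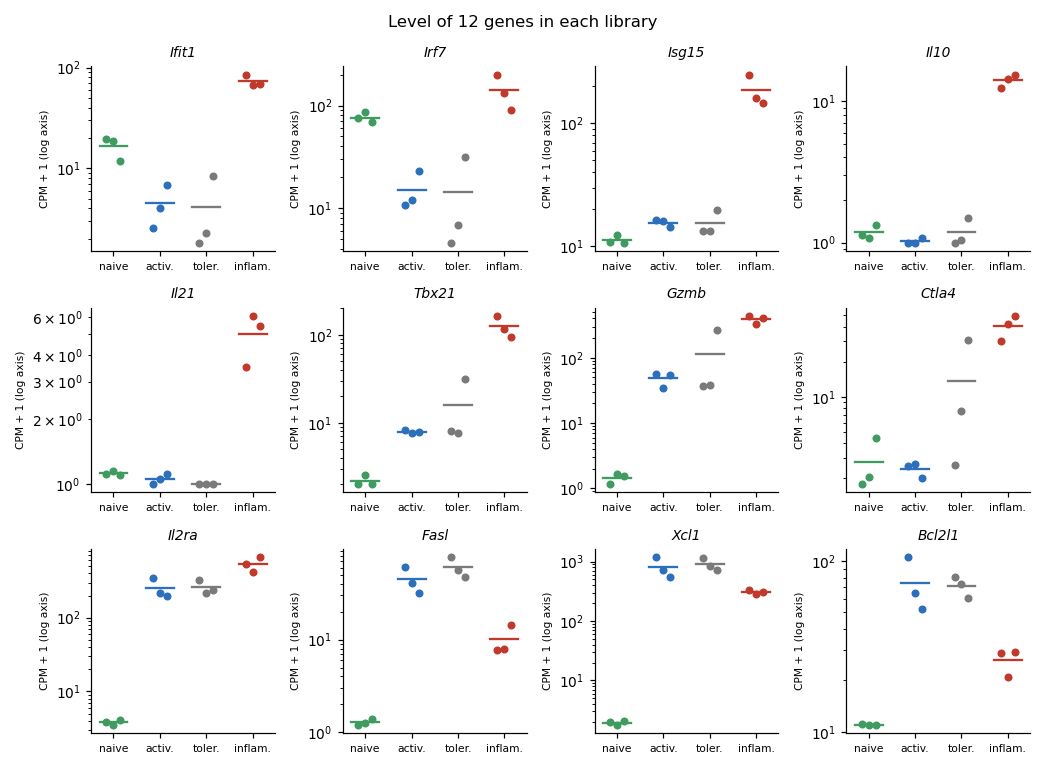
Level in CPM + 1 (log axis) of 12 genes in each of the 12 libraries, with points for libraries and a line for the group mean. All 12 are called genes, and inflamed and activated points do not overlap in any panel. Il10 and Il21 are near 0 CPM outside the inflamed group.

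Co-inhibitory receptors split. Ctla4, which competes with CD28 for its ligands, stood at 29.3, 41.3 and 48.4 CPM in inflamed and 1.55, 1.63 and 1.01 CPM in activated cells, a difference of 4.07 ± 0.71 (adjusted p = 0.0138). Tigit, which binds the poliovirus receptor, stood at 26.3, 28.9 and 30.7 against 3.6, 5.81 and 4.22 CPM and rose by 2.43 ± 0.33 (adjusted p = 0.00387). Cd226, the activating receptor for the same ligand, stood at 47.6, 55.8 and 65.5 against 112, 104 and 119 CPM, a difference of -0.99 ± 0.13 (adjusted p = 0.00305). Adora2a, a receptor for adenosine, stood at 19.1, 20.2 and 25.1 against 72.8, 78.8 and 54.9 CPM, a difference of -1.63 ± 0.17 (adjusted p = 0.000762). Pdcd1, the gene of PD-1, had overlapping groups at 108, 90.7 and 96.4 against 120.0, 77.5 and 58.8 CPM (adjusted p = 0.813). Lag3 stood at 294, 335 and 286 against 210.3, 235 and 155 CPM and did not pass (adjusted p = 0.294), and Cd274, the gene of PD-L1, stood at 115, 84.7 and 99.7 against 152, 130.0 and 132 CPM (adjusted p = 0.0828). Of the 15 co-inhibitory receptors 2 were higher and 1 lower, with a median of 0.11. With the block Adora2a and Cd226 did not pass (paired adjusted p = 0.0614 and 0.0538), and Ctla4 was lost without inflamed library 2 or activated library 2 (adjusted p up to 0.0618).

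Among 24 activation and costimulatory receptors 2 were higher, Il2ra and Tnfsf8, and 4 lower, and the median was 0.03. Cd200, whose protein restrains myeloid cells, stood at 13.2, 12 and 13 CPM in inflamed and 39.8, 45 and 31 CPM in activated cells, a difference of -1.51 ± 0.20 (adjusted p = 0.00325). Cd5 and Cd6, scavenger-type receptors that dampen receptor signalling, differed by -0.63 ± 0.13 and -0.51 ± 0.10 (adjusted p = 0.0355 and 0.0214). Both are also on the list of CD8 T cell markers. Tnfrsf9, or 4-1BB, which marks recently stimulated CD8 T cells, had overlapping groups at 863, 662 and 818 against 867, 695 and 558 CPM (adjusted p = 0.86). Cd69 did too, at 132, 121 and 206 against 161, 120.2 and 145 CPM (adjusted p = 0.968). With the block Cd5 and Cd6 did not pass (paired adjusted p = 0.133 and 0.133), and without 1 library their adjusted p rose to 0.174 (lost without inflamed 1 or 3 or activated 2 or 3) and 0.10 (lost without inflamed 1 or activated 2).

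The deposited table classes 863 of the tested genes as transcription regulators, of which 23 were higher (2.67%) and 4 lower (0.463%). Maf, which drives Il10 in several T cell types, stood at 82, 73.7 and 69.3 CPM in inflamed and 9.11, 4.53 and 3.67 CPM in activated cells and rose by 3.57 ± 0.35 (adjusted p = 0.000463). The other genes of this paragraph apart from Id3 were picked once their values were known. Hic1, a transcriptional repressor, stood at 61.9, 55.2 and 46.1 against 8.39, 7.33 and 4.27 CPM and rose by 2.89 ± 0.22 (adjusted p = 0.000123). Smad3, which relays TGF-beta signals, stood at 207, 189 and 207 against 39.1, 26.1 and 33.3 CPM and rose by 2.59 ± 0.21 (adjusted p = 0.000178). Il23r, the subunit specific to the interleukin-23 receptor, stayed under 1 CPM, at 0.612, 0.74 and 0.795 against 0.072, 0 and 0.0937 CPM (adjusted p = 0.00291, paired adjusted p = 0.137). Il23r passed the filter on reads only through the inflamed libraries. Etv6, an ETS-family repressor, rose by 1.02 ± 0.12 (adjusted p = 0.00189), and Tox2, of the TOX family, by 1.69 ± 0.13 (adjusted p = 0.000123). Amica1, an adhesion receptor of the junctional adhesion family, stood at 148, 129 and 153 against 21.6, 15.9 and 25.8 CPM and rose by 2.73 ± 0.24 (adjusted p = 0.000264). Notch1 rose by 1.09 ± 0.15 (adjusted p = 0.00429) and did not pass with the block (paired adjusted p = 0.0858). Id3, an inhibitor of E proteins kept high in memory precursors, stood at 20.2, 21.6 and 19.6 against 47, 53.9 and 40.8 CPM, a difference of -1.16 ± 0.13 (adjusted p = 0.00144).

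NF-kB target genes leaned down in value. Of 18 tested, 0 were higher and 2 lower, 4 differences were positive, and the median was -0.28. Bcl2l1, the survival protein Bcl-xL, stood at 27.8, 19.8 and 28.2 CPM in inflamed and 104, 63.6 and 51.4 CPM in activated cells, a difference of -1.45 ± 0.23 (adjusted p = 0.00869, paired adjusted p = 0.101). Traf1, an adaptor of 4-1BB and other TNF receptors, stood at 78.6, 75.1 and 69.2 against 154, 142 and 135 CPM, a difference of -0.94 ± 0.13 (adjusted p = 0.00411). Nfkb1, the p105 and p50 subunit, stood at 434, 369.8 and 461 against 943, 622 and 595 CPM without overlap and did not pass (adjusted p = 0.0567). Outside the list, and picked once their values were known, 2 genes named for partners of this pathway rose. Tnip3, which binds the NF-kB inhibitor A20, stood at 28.7, 24 and 33.2 against 3.38, 4.69 and 4.57 CPM, a difference of 2.50 ± 0.17 (adjusted p = 5.51e-05). Tbkbp1, an adaptor of the kinase TBK1, stood at 47.4, 33 and 28.2 against 4.32, 4.08 and 3.6 CPM, a difference of 2.86 ± 0.21 (adjusted p = 0.000115).

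Proximal T cell receptor signalling gave 1 call in each direction. Of 25 tested genes of the receptor complex and proximal signalling, 1 was higher and 1 lower, and 20 had their whole interval within 2-fold, against 84.2% of all genes tested. Rasgrp1, which activates Ras downstream of diacylglycerol, stood at 52, 74 and 68.2 CPM in inflamed and 109.7, 179.7 and 204 CPM in activated cells, a difference of -1.30 ± 0.24 (adjusted p = 0.0186). Malt1, the paracaspase that links the receptor to NF-kB, stood at 110.3, 158 and 154 against 51.2, 65.1 and 86 CPM and rose by 1.06 ± 0.19 (adjusted p = 0.0184). Grap, a Grb2-related adaptor, stood at 27.4, 39.6 and 35.1 against 85.4, 81.3 and 84.4 CPM, a difference of -1.29 ± 0.15 (adjusted p = 0.00157). Dusp4, a phosphatase that switches off MAP kinases, stood at 3.73, 5.06 and 4.77 against 16.6, 14.2 and 11.3 CPM, a difference of -1.44 ± 0.29 (adjusted p = 0.0316). Factors induced by the receptor had 1 of 21 called, Nfatc2 (0.66 ± 0.12, adjusted p = 0.0203). Nr4a1, an early gene of receptor signalling, had overlapping groups at 852, 707 and 1187 against 1066, 1120.0 and 818 CPM, as did Irf4 at 709.9, 672 and 731 against 830.5, 581 and 521 CPM and Myc at 940.4, 704 and 1027 against 1205, 821 and 655 CPM (adjusted p = 0.968, 0.927 and 0.987). Dusp4 and Nfatc2 did not pass with the block (paired adjusted p = 0.0968 and 0.21), and Dusp4 was lost in each fit without 1 library except that without activated library 3 (adjusted p up to 0.144). Rasgrp1 was lost without inflamed library 1 or activated library 2 or 3, Malt1 without inflamed library 2 or 3 or activated library 1 or 2, and Nfatc2 without inflamed library 1 or 2 (adjusted p up to 0.0977, 0.101 and 0.116).

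Other large falls were of genes that stood higher in activated than in naive cells. Wnt10b, a Wnt ligand, stood at 1.71, 2.18 and 5.66 CPM in inflamed and 14.8, 23.3 and 17.7 CPM in activated cells against a naive mean of 0.122 ± 0.0116 CPM, and the difference was -2.32 ± 0.32 (adjusted p = 0.00387). Stap1, a signal-transducing adaptor, stood at 12.2, 17.2 and 24 against 74.7, 79.5 and 58.3 CPM (-1.97 ± 0.23, adjusted p = 0.00151). Itm2a, an integral membrane protein, stood at 14.4, 21.9 and 46.8 against 72.7, 116 and 80.6 CPM (-1.80 ± 0.36, adjusted p = 0.0294). Inflamed library 3 was the highest of its group for all 3, as it was for Fasl and Nrn1. Sema4c, Pak6 and Nrn1 differed by -1.67 ± 0.27, -1.60 ± 0.19 and -1.53 ± 0.29 (adjusted p = 0.0095, 0.00157 and 0.0203). Of the 48 lower genes the naive mean was below the activated mean for 37. With the block Pak6 passed (paired adjusted p = 0.047), and Wnt10b, Stap1, Itm2a, Sema4c and Nrn1 did not (paired adjusted p = 0.0771, 0.0771, 0.155, 0.0968 and 0.229). Itm2a was lost without inflamed library 1 or 2 or activated library 2 or 3, Nrn1 without inflamed library 1 or 2 or activated library 1 or 2, and Sema4c without activated library 2 (adjusted p up to 0.147, 0.0996 and 0.0575).

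Differences in the growth and biosynthesis programme were small, and in most of its lists they leaned up in value. The whole interval lay within 2-fold for all 28 ribosome biogenesis, 25 cytosolic ribosomal protein, 26 respiratory chain and 20 standard proteasome genes tested. The share over all genes tested was 84.2%. The medians of these lists were 0.11, 0.08, 0.07 and 0.07. Positive differences numbered 26, 23, 21 and 17, against a share of 48.2% of all genes tested. No member was called, against 1.54% higher and 0.384% lower over all genes tested, shares at which lists of this size hold few calls. Of 22 glycolysis genes 2 were higher, Eno1 at 0.56 ± 0.10 (adjusted p = 0.0166) and Pfkp at 0.50 ± 0.08 (adjusted p = 0.00709), and 21 lay within 2-fold. Of the 22 differences 17 were positive. Psat1, an enzyme of serine synthesis, stood at 279, 280.0 and 324 against 193, 173 and 158 CPM and rose by 0.75 ± 0.10 (adjusted p = 0.00314). It was the 1 called of 24 ATF4, amino acid and one-carbon genes, with 20 positive differences and a median of 0.32. Xbp1 (0.49 ± 0.10, adjusted p = 0.0304) was 1 of 22 of the unfolded protein response, and Hif1a (0.41 ± 0.09, adjusted p = 0.0475) 1 of 16 of the hypoxia list. The unfolded protein response and hypoxia lists had 14 and 5 positive differences. None of 25 sterol, 16 heat shock, 21 lysosome and 25 apoptosis genes tested was called, and 18, 8, 8 and 16 differences were positive. Eno1, Pfkp, Psat1, Xbp1 and Hif1a did not pass with the block (paired adjusted p = 0.108, 0.131, 0.123, 0.171 and 0.239), and Eno1, Xbp1 and Hif1a were lost without inflamed library 2 or activated library 2 or 3, the latter pair also without inflamed library 1 and Hif1a without inflamed library 3 (adjusted p up to 0.0769, 0.14 and 0.237).

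No member of the 2 cell cycle lists was called, against 1.54% higher and 0.384% lower over all genes tested. Whole intervals lay within 2-fold for 84.2% of all genes tested. Of 32 genes of G1/S and DNA replication, 5 differences were positive, 26 whole intervals lay within 2-fold and the median was -0.16. Mcm5, a subunit of the replicative helicase, stood at 243, 239 and 249 CPM in inflamed and 348, 343 and 263 CPM in activated cells (adjusted p = 0.126). Of 25 G2/M genes the median was -0.10, and only 4 whole intervals lay within 2-fold. The fit pools the spread of all groups. The list summed to 188, 446 and 1501 CPM in the tolerized and 148, 162 and 278 CPM in the naive libraries. The part of these in the width of the intervals was not tested. The same sum was 146, 155 and 151 CPM in inflamed and 167, 173 and 167 CPM in activated libraries. Cdkn1a, the inhibitor p21, was picked once its values were known and rose by 1.96 ± 0.39 from 7.31, 5.81 and 4.29 to 36.9, 26.5 and 15.8 CPM (adjusted p = 0.0267, paired adjusted p = 0.0326). Its call was lost without inflamed library 1 or 2 or activated library 2 or 3 (adjusted p up to 0.135).

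Naive and quiescence genes, homing receptors and glucocorticoid targets gave few calls, beside 1.54% higher and 0.384% lower over all genes tested. Id3 was the 1 lower of 26 naive and quiescence genes, with 0 higher and a median of -0.18. Il7r, the interleukin-7 receptor that keeps naive cells alive, stood at 5.81, 44.4 and 8.17 against 5.76, 34.6 and 87.9 CPM, with wide spread and overlap (adjusted p = 0.823). Activated library 3 was the highest of the 6. Cxcr5, the receptor that guides cells to B cell follicles, stood at 43.9, 39.9 and 35.7 against 13.1, 15.1 and 10.4 CPM and rose by 1.57 ± 0.30 (adjusted p = 0.0234), and Itgav, the integrin alpha-v chain, differed by -0.62 ± 0.14 (adjusted p = 0.0475). They were the 1 higher and the 1 lower of 24 chemokine receptor and adhesion genes. Fkbp5, the classical glucocorticoid target that binds HSP90, stood at 223, 241 and 239 against 117, 125 and 131 CPM and rose by 0.91 ± 0.10 (adjusted p = 0.00126), the 1 called of 18 glucocorticoid response genes. Tsc22d3, another classical target, had overlapping groups (adjusted p = 0.961). Hdac7 was the 1 lower of 21 chromatin regulators (-0.66 ± 0.12, adjusted p = 0.0203, paired adjusted p = 0.186). Cxcr5 and Itgav were lost in each fit without 1 library except that without inflamed library 3 (adjusted p up to 0.119 and 0.176), Hdac7 without inflamed library 1 or 2 or activated library 2 (adjusted p up to 0.106), and Itgav also with the block (paired adjusted p = 0.213).

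**Figure D5:**
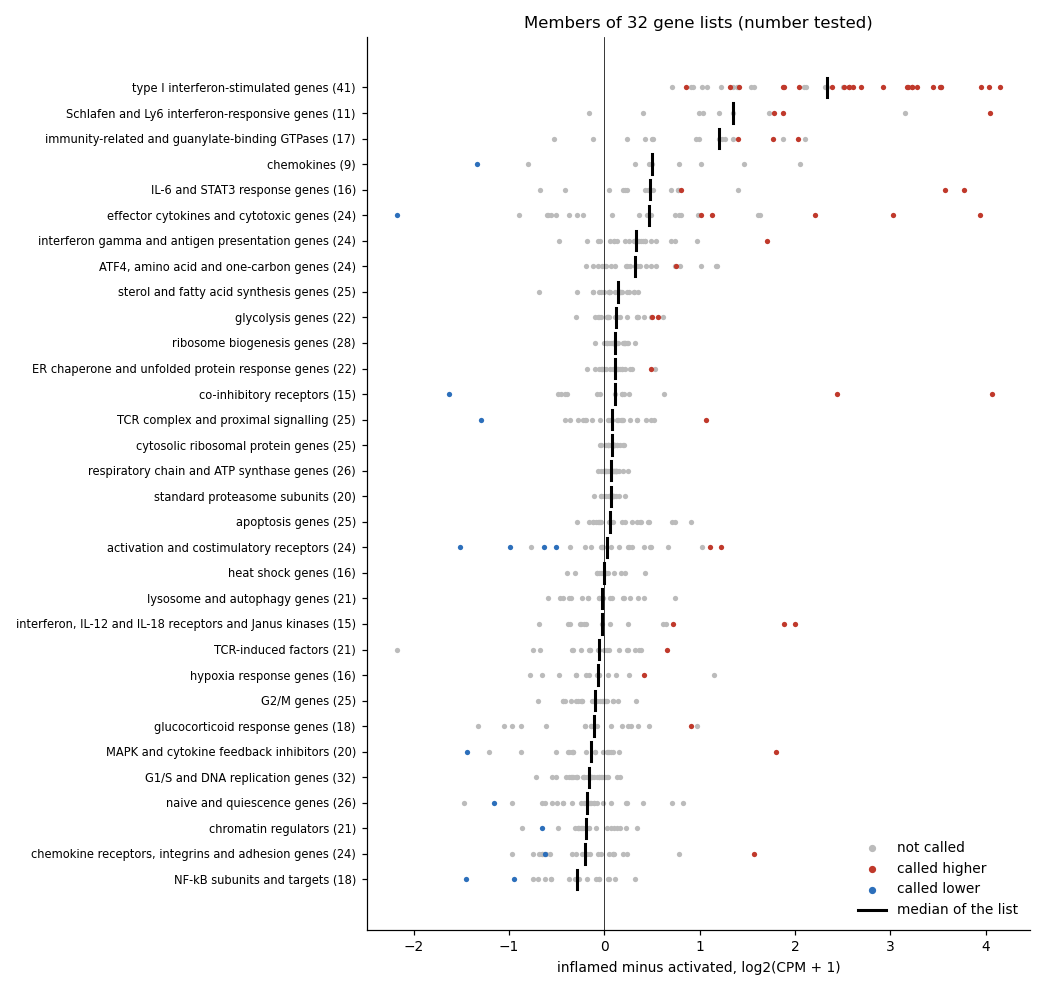
Difference between inflamed and activated cells (log2 scale) of each tested member of 32 gene lists, with the number tested in brackets, called members in colour and a bar at the median of the list. The lists of type I interferon-stimulated genes, of GTPases and of Schlafen and Ly6 genes have medians above 1. That of interferon gamma and antigen presentation genes has a median of 0.33, and that of ATF4, amino acid and one-carbon genes 0.32. The ribosome biogenesis, ribosomal protein, respiratory chain and proteasome lists have medians from 0.07 to 0.11.

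Some rises were of transcripts proper to myeloid cells. All 13 neutrophil markers tested had a positive difference, with a median of 1.64, and 2 were called. Lcn2, a siderophore-binding granule protein, stood at 92.5, 28.8 and 2.76 against 0.648, 0.0533 and 0.112 CPM (adjusted p = 0.0347). Ltf, lactoferrin, stood at 6.45, 4.56 and 0.944 against 0.18, 0.107 and 0 CPM (adjusted p = 0.0349). S100a9, a calcium-binding protein of granulocytes, stood at 123, 48.8 and 6.26 against 7.53, 0.453 and 1.18 CPM with overlap (adjusted p = 0.108). All 3 were highest in inflamed library 1 and lowest in inflamed library 3 of their group, as was the macrophage receptor Marco at 170.4, 45.9 and 3.33 against 10.7, 1.01 and 0.637 CPM (adjusted p = 0.279). The acute-phase gene Saa3 stood at 65.8, 20.3 and 1.27 CPM in inflamed libraries and was listed at 0 in all 3 activated ones (adjusted p = 0.0554). Saa3 passed the filter on reads only through the inflamed libraries, and S100a9 and Saa3 were picked once their values were known. Of 20 macrophage and monocyte markers tested 0 were called, and 4 differences were positive. Csf1r, which defines these cells, stood at 37, 20.1 and 0.621 against 124, 29.7 and 10.5 CPM. Lcn2 and Ltf were lost with the block (paired adjusted p = 0.164 and 0.145) and in each fit without 1 library except that without inflamed library 3 (adjusted p up to 0.146 and 0.156), and the part of myeloid RNA in their levels was not tested. Without library 1 of both groups, which were the richest in macrophage markers, 54 of the 104 calls among named or picked genes were kept. Among those lost were Ifit3, Usp18, Irf7, Mx1, Ly6a, Ctla4, Gzmb and Tnfsf8 (adjusted p = 0.0584, 0.0846, 0.221, 0.174, 0.111, 0.0958, 0.194 and 0.078). Xcl1, Prf1, Cxcr5, Cdkn1a and Dusp4 were lost too (adjusted p = 0.0531, 0.0531, 0.198, 0.155 and 0.299). Ifit1, Isg15, Tbx21, Il10, Lif, Maf, Il21 and Il12rb1 were among those kept (adjusted p = 0.038, 0.00029, 0.0242, 0.000167, 0.000553, 0.00246, 0.000111 and 0.000594).

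Runs of at least 3 called genes (next start within 200000 bases, GRCm38.p6) lay at 5 places, and all calls in them were higher. Over all genes tested, 192 calls were higher and 48 lower. The runs were bounded by called genes, and no uncalled gene that was tested lay inside them. On chromosome 19 from 34583119 to 34650009 were Ifit3, I830012O16Rik, 2010002M12Rik and Ifit1, with differences from 1.66 to 4.15. The stretch of 59 bases printed above for Ifit1 is also in the window of 2010002M12Rik, which is read from the opposite strand. On chromosome 11 from 82974316 to 83040533 were Slfn9, Slfn8 and Slfn10-ps, from 1.20 to 1.87. On the same chromosome from 49076587 to 49135387 were Ifi47 and the olfactory receptor genes Olfr1396 and Olfr56, from 1.40 to 2.30. Reads may be shared between neighbouring gene models, and the levels of Olfr1396 and Olfr56 are reported as uncertain. On chromosome 9 from 57939596 to 58249796 were Sema7a, Cyp11a1 and Pml. Sema7a, a membrane semaphorin of activated T cells, stood at 926, 733 and 734 against 423, 266 and 235 CPM and rose by 1.41 ± 0.20 (adjusted p = 0.00486). Pml, the scaffold of nuclear bodies, rose by 1.75 ± 0.28 (adjusted p = 0.0095, paired adjusted p = 0.0574), and was lost without inflamed library 1 or 2 (adjusted p up to 0.0555), while Cyp11a1, the first enzyme of steroid synthesis, was at 1.19, 0.818 and 0.795 against 0.144, 0 and 0.0937 CPM (adjusted p = 0.00489, paired adjusted p = 0.10). Cyp11a1 passed the filter on reads only through the inflamed libraries. On chromosome 9 from 107296659 to 107349683 were Cish, Hemk1 and 6430571L13Rik, from 0.67 to 1.80. Genes of this paragraph other than Ifit1, Ifit3, Ifi47, Slfn8, Slfn9 and Cish were picked once their values were known.

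The tolerized libraries show the same genes at blockade without LPS, and the values are given side by side since both contrasts use the inflamed libraries. The 192 higher genes had a median difference of 0.05 between tolerized and activated cells and of 1.06 between inflamed and tolerized cells. For the 48 lower genes these medians were 0.13 and -1.04. In the tolerized libraries Il10 was at 0, 0.0446 and 0.495 CPM, Lif at 18.2, 11.6 and 22.3 CPM, Maf at 3.15, 3.08 and 6.17 CPM and Tbx21 at 7.14, 6.65 and 30.7 CPM. Tolerized library 3 was the highest of its group for all 4. Among the falls Bcl2l1 was at 79.8, 72.5 and 59.9 CPM, Fasl at 76.4, 55.3 and 45.9 CPM and Cd200 at 37.3, 60.4 and 39.9 CPM, all above the inflamed range. Of the 192 higher genes the naive mean was above the activated mean for 101, and the inflamed mean was above the naive mean for 185.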

How the data were processed

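Messenger RNA of sorted splenic CD8 T cells was sequenced on an Illumina HiSeq in 12 libraries, 3 for each of 4 treatment groups. Per the submitters' processing notes TopHat2, bedtools and DESeq were used, with no versions given; the build is not given in the sources used here. The labels' extraction text names mouse embryonic fibroblasts, which is at odds with the sorted cells. The authors deposited 1 table of whole-number read counts of 16353 genes written with commas between digits. Because of the commas the values were not accepted as counts, so limma replaced the edgeR test planned for counts. Even values made up 55.65 to 64.41% of the values from 1 to 20, so some fragments may have been counted at both ends. Totals ranged from 29335723 to 84533097 reads per library, and the median 95% interval reached 0.342 to either side on the log2 scale.

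Counts were scaled by TMM factors (0.897 to 1.22, own code), turned into log2(CPM + 1), and fitted in R 4.3.3 with limma 3.58.1 (trend) as 4 group means over all 12 libraries. Genes needed 10 reads at the median library size in at least 3 libraries and 15 reads in all. Errors given with ± are standard errors of the log2 difference, or SD (n = 3) for levels, and p-values were adjusted by Benjamini-Hochberg over 12499 genes. The fit was tested on simulated counts of independent libraries with the same spread setting for all genes. Spread that differs between genes or groups, and libraries that deviate together, were not covered. Same-numbered inflamed and activated libraries deviated together (correlations of deviations 0.636, 0.225 and 0.146), each over the limit of 0.1 used to call them paired. No label explains the numbers, and differently numbered libraries correlated too (inflamed 2 with activated 3 at 0.562, inflamed 3 with activated 2 at 0.250), so the data do not single out this pairing. Gene IDs of 16313 genes matched RefSeq, and 23 symbols were restored from dates or numbers. The comparison, the 41 gene lists (804 of 815 genes in the table) and the named genes were chosen with earlier results of these data known. Named genes are the 15 largest called rises and the 15 largest called falls (groups not overlapping, 10 CPM or more on average in the higher one), for each list its 3 members of lowest adjusted p, and 30 reference genes. Others are said to be picked once their values were known, or are list members given to show the range. Alternatives covered scaling, filter, pseudocount, libraries fitted, blocking and each library left out.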

Additional observations from a re-analysis of the deposited data

How the results depend on the processing

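The counts of 192 higher and 48 lower genes were between 160 and 209 and between 39 and 61 under 3 other scalings, limma-voom, a filter at 5 CPM or none, and 0.1 or 5 in place of 1 added to CPM. They were 85 and 14 with the 2 groups fitted alone, 123 and 24 with the 9 antigen-exposed libraries, 370 and 123 with the macrophage marker level as a covariate, and 104 and 19 at a threshold of at least 2-fold. Without library 1 of both groups, an alternative chosen after seeing the data, they were 86 and 24. With 1 library left out they ranged from 87 to 249 and from 20 to 89. With the replicate block, fitted on the 2 groups alone, they were 60 and 7, and 64 of the 240 calls were kept. The cause of these differences was not tested. The fits that leave libraries out also rest on fewer libraries, and the part of that was not tested either.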
